A study of Homo sapiens with 9 samples.

Results

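The 40 genes described here encode proteins that fold, import, cut and dispose of polypeptides in the endoplasmic reticulum (ER), together with the sensors of ER stress. They were chosen by name, with earlier results of these data known. All were matched by Ensembl gene to their symbols and were found among the 57500 genes of each count file. They comprise 12 chaperones and their partners, 6 disulfide enzymes, 9 genes of ER-associated degradation, 10 genes of protein translocation and signal peptide cleavage, and 3 stress sensors. RNA was sequenced from untreated BJAB cells, a human B-cell line labelled as a Burkitt lymphoma tumor. The parental line (control), the line carrying the long version of TACI (TACI long) and the line carrying the short version (TACI short) had 3 libraries each. TACI, encoded by TNFRSF13B, is a B-cell receptor of the TNF receptor family that binds the cytokines BAFF and APRIL. The titles describe the TACI lines as stable transfectants and the design text speaks of transduction. The control titles name the cell line alone, with no vector. Nothing in the labels ties a replicate to a separate culture or clone, so p-values compare groups with a spread between libraries that may be technical only.

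Secreted and membrane proteins enter the ER through the SEC61 channel, usually while they are being made, and a signal peptidase removes their leader. Chaperones such as BiP hold the new chains, the calnexin and calreticulin cycle handles those with sugars, and protein disulfide isomerases join their cysteines. Chains that do not fold are sent back to the cytosol and degraded. When folding falls behind, the sensors IRE1, ATF6 and PERK start the unfolded protein response, in which ATF6 and spliced XBP1 raise the transcription of chaperone and degradation genes, and PERK raises the translation of ATF4. B cells depend on this apparatus to make immunoglobulin, and it expands as they turn into plasma cells.

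The introduced gene was examined first. TNFRSF13B had a CPM (the count relative to the library's total) of 28.8, 15.2 and 14.6 in the controls. It stood at 691, 704 and 738 CPM in TACI long and at 2964, 2965 and 2655 CPM in TACI short. Gene counts do not tell the isoforms apart, and the amount of TNFRSF13B RNA was 3.68-fold higher in TACI short than in TACI long, so isoform and amount cannot be told apart here. Total counts ran from 40322136 to 50079203 per library. TACI short replicates 2 and 3 stood apart: 32882 and 32209 genes had a count in them, against 24307 to 25938 in the other libraries. All 10 B-cell markers reached 1 CPM in every group. The 10 myeloid markers summed to 11.4 to 28.6 CPM in the controls, TACI long and TACI short replicate 1 and to 124 and 120 CPM in TACI short replicates 2 and 3. Between 4 and 6 of the 10 reached 1 CPM in a group, and S100A8 was at 0 in every library. The 8 T and NK cell markers summed to at most 4.54 CPM, and 1 or 2 of them reached 1 CPM in a group. NKG7 was at 1.4 to 2.88 CPM over all libraries. CD3E was at 1.11, 1.62 and 1.44 CPM in TACI long, called higher than in the controls (edgeR adjusted p = 0.0416), while CD3D was at 0 in both TACI lines.

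Promoters of ER stress genes are known to hold short response elements, and the promoters of 5 members are shown because these elements lie just upstream of the counted gene. The elements searched were ERSE (CCAAT, 9 free bases and CCACG, known for binding NF-Y and ATF6), ERSE-II (ATTGG, 1 free base and CCACG) and UPRE (TGACGTGG, known for binding XBP1). They were searched on both strands of RefSeq promoters of build GRCh38.p14, which run from 250 bases before to 50 bases after the start of transcription. Capitals mark the fixed letters of each element on either strand, and the rest is in lower case. HYOU1 holds a UPRE that overlaps its first ERSE-II. Each sequence is read 5′ to 3′ along the gene and ends before the first base counted.
HSPA5, chr9:125241344-125241593, minus strand: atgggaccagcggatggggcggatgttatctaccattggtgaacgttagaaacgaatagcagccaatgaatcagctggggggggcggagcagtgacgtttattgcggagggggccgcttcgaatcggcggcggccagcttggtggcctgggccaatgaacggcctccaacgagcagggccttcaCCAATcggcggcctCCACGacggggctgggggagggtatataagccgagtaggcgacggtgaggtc
CALR, chr19:12938359-12938577, plus strand: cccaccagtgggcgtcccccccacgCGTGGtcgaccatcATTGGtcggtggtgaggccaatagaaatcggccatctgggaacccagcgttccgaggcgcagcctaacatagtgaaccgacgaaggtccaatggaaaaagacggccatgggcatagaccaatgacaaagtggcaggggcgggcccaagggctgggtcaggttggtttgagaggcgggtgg
SDF2L1, chr22:21642052-21642260, plus strand: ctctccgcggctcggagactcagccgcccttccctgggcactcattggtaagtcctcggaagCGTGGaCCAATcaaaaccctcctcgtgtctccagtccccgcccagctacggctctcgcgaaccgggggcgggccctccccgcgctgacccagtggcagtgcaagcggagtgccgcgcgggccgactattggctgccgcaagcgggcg
HYOU1, chr11:119057206-119057455, minus strand: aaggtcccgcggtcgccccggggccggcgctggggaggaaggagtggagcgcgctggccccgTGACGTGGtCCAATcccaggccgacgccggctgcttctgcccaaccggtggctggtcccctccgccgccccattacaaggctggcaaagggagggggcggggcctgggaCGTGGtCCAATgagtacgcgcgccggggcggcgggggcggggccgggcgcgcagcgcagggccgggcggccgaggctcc
HERPUD1, chr16:56931892-56932047, plus strand: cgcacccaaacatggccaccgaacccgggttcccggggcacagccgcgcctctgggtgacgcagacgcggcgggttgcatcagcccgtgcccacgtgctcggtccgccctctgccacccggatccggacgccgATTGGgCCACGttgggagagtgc

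Of the 40 genes, 36 had promoters in the table, and 12 of these (33.3%) held at least 1 of the elements. Over all 27305 genes with a promoter the share was 1.08%. ERSE was present in HSPA5, HSP90B1, CALR, CANX, CRELD2 and PDIA6, which is 16.7% of the 36 against 0.0916% of all genes. ERSE-II was present in HYOU1, SDF2L1 and HERPUD1 (8.33% against 0.0696%), and UPRE in HYOU1, TXNDC11, SSR3 and SSR4 (11.1% against 0.927%). The ERSE of 3 further genes, shown whole, have different bases in the free stretch.
HSP90B1: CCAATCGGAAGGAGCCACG
CANX: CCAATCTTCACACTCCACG
PDIA6: CCAATGAGCCGCAGCCACG
By role, an element was found in 7 of 12 chaperones, 2 of 5 disulfide enzymes, 1 of 7 degradation genes, 2 of 9 translocation genes and 0 of 3 sensors. The elements are known from promoters of ER stress genes, so a larger share among the members was given beforehand and is no result of these data. The 27305 genes were not limited to the 16672 tested for expression, and the shares were not tested. A match describes the letters in the window and is no measure of binding.

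The first comparison asked how ER folding genes of unstimulated cells with the long isoform differ from those of the parental cells. In TACI long, 27 of the 40 genes rose, 7 fell and 6 did not pass the test. All 12 chaperones and 5 of 6 disulfide enzymes were among those that rose, while 2 of the 3 stress sensors fell. The rises were moderate: the steepest was that of HSPA5, at 1.67-fold, and no member reached 2-fold, a size that 10.3% of all tested genes reached. Among all 16672 genes tested, 51.1% were called, 25.2% as higher and 25.9% as lower. The members and the further lists were chosen with earlier results of these data known. Their counts beside such shares are therefore a description in each comparison and no test. The median log2 fold change of the 40 genes was 0.25, against -0.00 over all genes tested. Together they took 8241 to 8312 CPM in the controls and 11147 to 11256 CPM in TACI long. The test was edgeR's quasi-likelihood test with Benjamini-Hochberg adjustment over all genes, called at an adjusted p under 0.05, and every adjusted p below comes from it. In bulk RNA, a change of RNA per cell and a change in the share of cells that hold it cannot be told apart.

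The second comparison put the same question to the short isoform. In TACI short, 31 of the 40 genes fell, 3 rose and 6 did not pass the test. The falls took in 11 of 12 chaperones, 5 of 6 disulfide enzymes and 9 of 10 translocation genes, and HSPA5 (2.31-fold), CALR (2.03-fold) and MANF (2-fold) fell the most. The 3 rises were those of ERN1, EDEM2 and HERPUD1. Over all genes tested, 62.6% were called, 31.1% as lower and 31.5% as higher, and the members' median log2 fold change was -0.37 against 0.03 over all genes. The summed level was 5770 to 5941 CPM, below every control. Without TACI short replicates 2 and 3, which stand apart, a single TACI short library is left, and it is assumed to vary like the libraries of the other groups. In that fit 28 members were lower and 3 higher. The higher ones and 27 of the lower ones were shared with the full set of libraries, EDEM1, SEL1L, SPCS1 and SYVN1 lost their call and SSR2 gained one. The 2 comparisons share the control libraries, so each is given with its own values.

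The third comparison set the 2 isoforms against each other. In TACI short 31 members were lower than in TACI long, 5 were higher and 4 did not pass the test, with a median log2 difference of -0.60 against 0.05 over all genes. Of all genes tested, 68.8% were called in this comparison, 33.6% as lower and 35.2% as higher. A difference of at least 2-fold was reached by 14 members, 10 of them chaperones, and by 23.1% of all genes tested. With replicate 1 as the single TACI short library, the same 31 were lower, and of the 5 higher ones 4 were shared, with EDEM3 lost and EIF2AK3 gained (0.20, edgeR adjusted p = 0.0276).

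**Figure D1:**
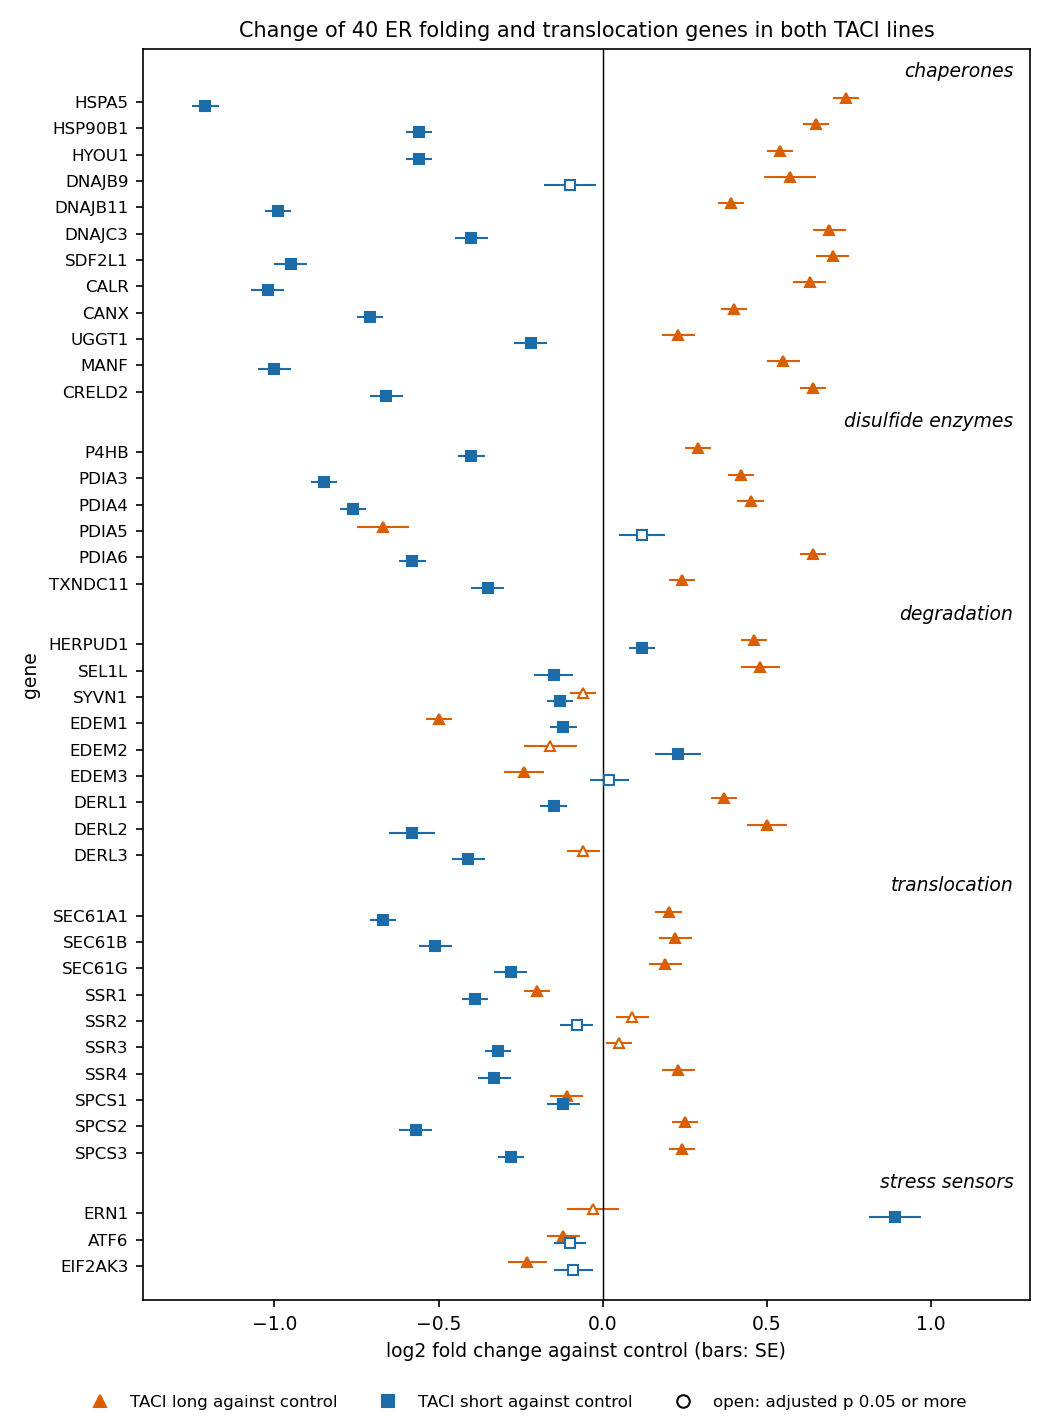
Log2 fold change against control of the 40 genes, grouped by role, for TACI long (triangles) and TACI short (squares), with standard errors as bars and open symbols for an adjusted p of 0.05 or more. The 12 chaperones lie right of 0 in TACI long, from 0.23 to 0.74, and left of 0 in TACI short, where DNAJB9 turns to 0.03 with totals alone, while degradation genes lie on both sides in each line.

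The scale of the TACI short folds needs a remark before single genes are given. CPM values here are counts over the library's total, whereas the fold changes use TMM factors, which were 1.03 to 1.1 in TACI short and 0.962 to 0.98 elsewhere. With totals alone, the median of all genes in TACI short against control moves from 0.0258 to 0.154, the median of the members to -0.24, and the calls to 25 lower and 4 higher. The calls over all genes then divide into 6862 higher and 3779 lower, against 5256 and 5179 with TMM factors. Against TACI long, totals alone move the median of all genes from 0.0456 to 0.176. Small negative values in TACI short therefore depend on the scaling, and calls against control that are lost with totals alone are named below.

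Chaperones had the highest summed CPM of the 5 roles in every group. Their summed level was 4129 to 4201 CPM in the controls, 6296 to 6368 CPM in TACI long and 2404 to 2525 CPM in TACI short, with no overlap between the groups. The median log2 fold change over the 12 was 0.60 in TACI long and -0.68 in TACI short, and -1.25 between the isoforms.

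HSPA5 encodes BiP, the main HSP70 of the ER and the partner that keeps the stress sensors inactive (ENSG00000044574, hg38 chromosome 9, 125234853 to 125241330, minus strand). Its RNA stood at 1049, 1059 and 1086 CPM in the controls, at 1776, 1764 and 1793 CPM in TACI long and at 495, 493 and 521 CPM in TACI short. Every TACI long library lay above every control and every TACI short library below, by several times the spread within a group. The log2 fold change was 0.74 ± 0.04 (SE) in TACI long (edgeR adjusted p = 1e-12) and -1.21 ± 0.04 in TACI short (edgeR adjusted p = 1.6e-16). Between the isoforms HSPA5 differed 3.87-fold, the widest gap of any member downwards (log2 difference -1.95 ± 0.04).

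CALR encodes calreticulin, the soluble lectin that binds glycoproteins with trimmed sugars (ENSG00000179218, chromosome 19, 12938578 to 12944489, plus strand). It had 1267, 1186 and 1220 CPM in the controls, 1898, 1872 and 1907 CPM in TACI long and 656, 637 and 689 CPM in TACI short. The groups did not overlap, and the log2 fold changes were 0.63 ± 0.05 and -1.02 ± 0.05 (edgeR adjusted p = 9.31e-11 and 1.44e-14). CANX, its membrane-bound relative calnexin, stood at 754, 792 and 797 CPM in the controls, 1026, 1029 and 1028 CPM in TACI long and 513, 520 and 531 CPM in TACI short. It rose by a smaller step (0.40 ± 0.04) and fell by 0.71 ± 0.04 on the log2 scale. UGGT1, which adds glucose back to misfolded glycoproteins so that they return to the lectins, moved least of the 12 in TACI long (0.23 ± 0.05). Its CPM in TACI short, 77.5, 82.7 and 75.9, overlapped the controls at 78.7, 87.2 and 84.8. The fall of UGGT1 there, -0.22 ± 0.05, lost its call with totals alone (-0.09, edgeR adjusted p = 0.0991).

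HSP90B1 encodes GRP94, the HSP90 of the ER, which folds Toll-like receptors and integrins. Its CPM was 477, 487 and 484 in the controls, then 747, 768 and 756 in TACI long and 338, 368 and 367 in TACI short. The groups were apart, with log2 fold changes of 0.65 ± 0.04 and -0.56 ± 0.04. HYOU1, a large HSP70-like protein that exchanges the nucleotide of BiP, went from 130, 137 and 136 CPM to 191, 198 and 199 CPM in TACI long and to 91.6, 104 and 104 CPM in TACI short. Its steps were 0.54 ± 0.04 and -0.56 ± 0.04, close to equal in size.

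The J-domain partners of BiP were not alike. DNAJB11, which delivers unfolded chains to BiP, stood at 125, 117 and 122 CPM in the controls, 154, 159 and 162 CPM in TACI long and 65.0, 66.5 and 69.0 CPM in TACI short. On the log2 scale its rise (0.39 ± 0.04) was smaller than its fall (-0.99 ± 0.04). DNAJC3, also called P58IPK, had the larger step in TACI long: 27.0, 28.8 and 26.6 CPM in the controls became 41.9, 46.1 and 44.4 CPM in TACI long (0.69 ± 0.05) and 21.5, 22.6 and 23.9 CPM in TACI short (-0.40 ± 0.05). DNAJB9, a J-domain protein that attaches BiP to the sensor IRE1, was the 1 chaperone that did not pass the test in TACI short. It had 7.39, 9.07 and 8.32 CPM in the controls and 7.85, 9.23 and 8.29 CPM in TACI short, ranges that overlap (-0.10 ± 0.08, edgeR adjusted p = 0.319), and its value was 0.03 with totals alone. In TACI long all 3 libraries, at 12.8, 11.7 and 12.1 CPM, were above the controls (0.57 ± 0.08, edgeR adjusted p = 3.24e-06).

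SDF2L1, which works with DNAJB11 to keep substrates of BiP soluble, had 83.5, 79.4 and 83.0 CPM in the controls, 134, 129 and 136 CPM in TACI long and 48.6, 44.6 and 45.4 CPM in TACI short. It had the second-widest gap between the isoforms, together with CALR (-1.65 ± 0.05 for each). MANF, a small secreted protein that binds BiP, stood at 119, 111 and 116 CPM in the controls, 166, 167 and 173 CPM in TACI long and 64.2, 60.0 and 64.6 CPM in TACI short. Its groups were apart (0.55 ± 0.05 and -1.0 ± 0.05). CRELD2, an ER protein known to be induced by stress, showed nearly equal steps of 0.64 ± 0.04 and -0.66 ± 0.05. Its CPM was 36.0, 36.7 and 37.3 in the controls, then 56.4, 56.8 and 57.6 in TACI long and 25.5, 25.7 and 25.2 in TACI short.

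**Figure D2:**
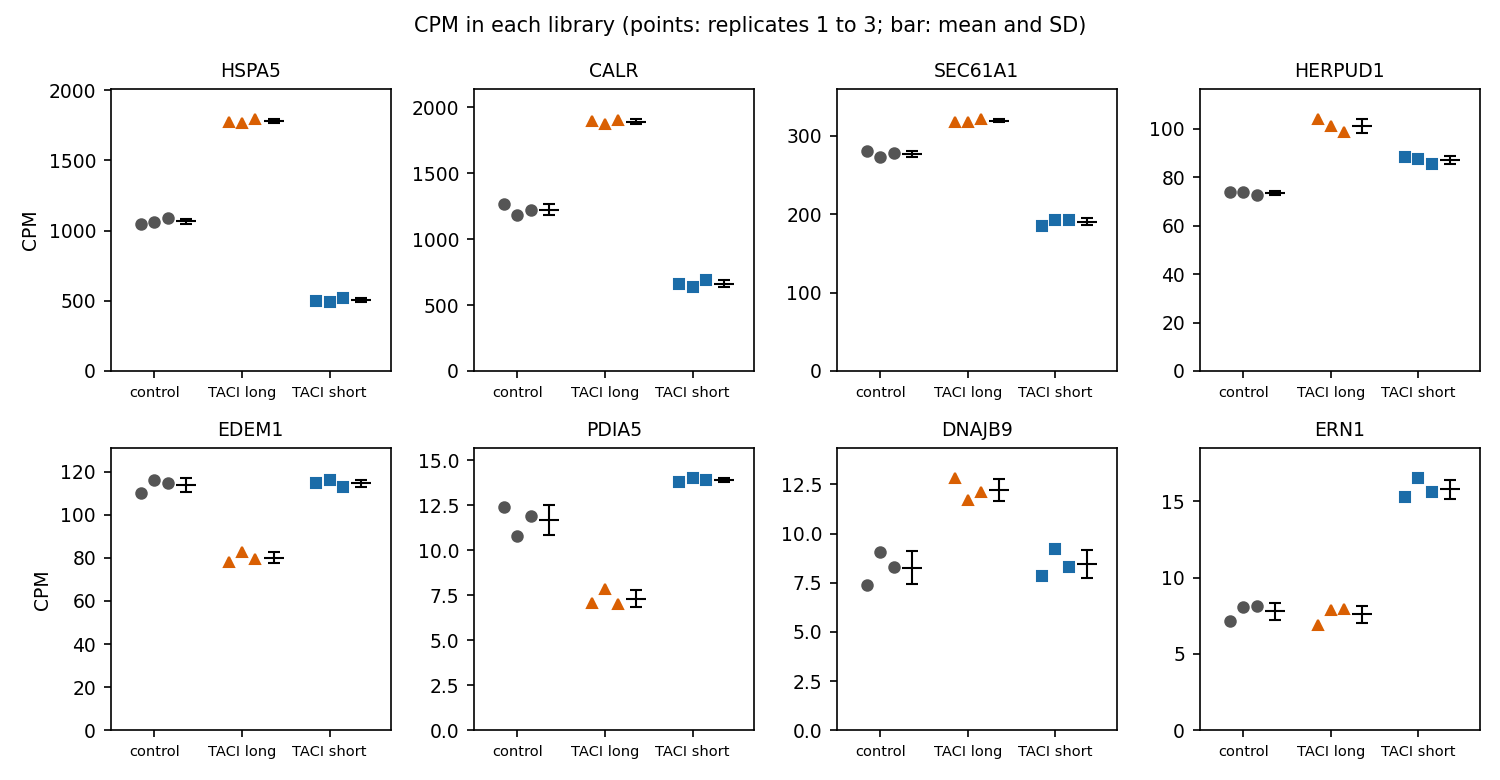
CPM of 8 of the genes in each library (points), with the mean and SD of the 3 libraries of a group as a bar. HSPA5, CALR and SEC61A1 are high in TACI long and low in TACI short, EDEM1 and PDIA5 are lowest in TACI long, and ERN1 is highest in TACI short, at 15.3 to 16.5 CPM.

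The 7 chaperones with an element in the promoter had a median log2 fold change of 0.64 in TACI long, between 0.40 and 0.74, and of -0.71 in TACI short. The 5 without one (DNAJB9, DNAJB11, DNAJC3, UGGT1 and MANF) had medians of 0.55, between 0.23 and 0.69, and -0.40. The ranges of the 2 sets overlap. Genes without an element had no exact match in the promoter searched, and a relation between elements and changes was not tested.

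Disulfide enzymes followed the chaperones with 1 exception. Their summed level was 1861 to 1872 CPM in the controls, 2465 to 2524 CPM in TACI long and 1329 to 1365 CPM in TACI short. The median log2 fold change was 0.35 in TACI long and -0.49 in TACI short.

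PDIA3, the isomerase that works with calnexin and calreticulin, had 548, 560 and 548 CPM in the controls, 743, 728 and 742 CPM in TACI long and 328, 331 and 347 CPM in TACI short. The groups were apart, and the fall in TACI short (-0.85 ± 0.04) was the largest of the 6. PDIA4 moved from 276, 266 and 272 CPM to 366, 370 and 374 CPM in TACI long (0.45 ± 0.04) and to 174, 173 and 178 CPM in TACI short (-0.76 ± 0.04). PDIA6, which binds BiP and can attenuate signalling by IRE1, rose the most of the 6. It stood at 359, 370 and 365 CPM in the controls, 564, 564 and 575 CPM in TACI long and 266, 265 and 267 CPM in TACI short (0.64 ± 0.04 and -0.58 ± 0.04). P4HB, the classical protein disulfide isomerase and a subunit of prolyl 4-hydroxylase, had 636, 618 and 639 CPM in the controls, 774, 753 and 784 CPM in TACI long and 525, 515 and 527 CPM in TACI short (0.29 ± 0.04 and -0.40 ± 0.04). TXNDC11, a membrane-bound thioredoxin-like protein known as a partner of EDEM proteins, changed in the same directions (0.24 ± 0.04 and -0.35 ± 0.05).

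PDIA5 was the exception (ENSG00000065485, chromosome 3, 123067062 to 123225227, plus strand). This isomerase is known for releasing ATF6 from its disulfide-linked form. It stood at 12.4, 10.8 and 11.9 CPM in the controls, 7.09, 7.85 and 7.0 CPM in TACI long and 13.8, 14.0 and 13.9 CPM in TACI short. TACI long libraries were all below the controls, with a log2 fold change of -0.67 ± 0.08 (edgeR adjusted p = 1.05e-07). The TACI short libraries were all above them on the CPM scale, but the log2 fold change of 0.12 ± 0.07 did not pass the test with TMM factors (edgeR adjusted p = 0.16). With totals alone it was 0.25 and passed (edgeR adjusted p = 0.00552). The isoforms differed by 0.80 ± 0.08, with TACI short higher, opposite in sign to the other 5 enzymes.

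Degradation genes had no common direction. Their summed level was 795 to 830 CPM in the controls, 826 to 860 CPM in TACI long and 805 to 851 CPM in TACI short. These ranges overlap on the scale of library totals, and the sums were not scaled by TMM factors. Between the isoforms the median log2 difference was -0.35 with TMM factors and -0.22 with totals alone. In TACI long 4 of the 9 rose and 2 fell, with a median log2 fold change of -0.06, beside 25.2% higher and 25.9% lower over all genes tested. In TACI short 6 fell and 2 rose (median -0.13), beside 31.1% lower and 31.5% higher over all genes tested. With totals alone 2 fell and 2 rose, beside 3779 lower and 6862 higher over all genes.

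The 4 genes that rose in TACI long were HERPUD1, SEL1L, DERL1 and DERL2. SEL1L, the adaptor of the ubiquitin ligase HRD1, had 60.9, 74.2 and 71.3 CPM in the controls and 93.8, 99.2 and 94.3 CPM in TACI long (0.48 ± 0.06), with no overlap. In TACI short, at 64.8, 68.2 and 70.7 CPM, it lay among the controls. Its log2 fold change there, -0.15 ± 0.06, passed the test narrowly (edgeR adjusted p = 0.0277) and lost the call in 9 of the 19 alternatives other than thresholds, totals alone among them. SYVN1, which encodes HRD1 itself, did not pass the test in TACI long (-0.06 ± 0.04, edgeR adjusted p = 0.296). Its fall in TACI short, -0.13 ± 0.04, became 0.0 with totals alone, and its CPM of 376, 390 and 346 there surrounded the control values of 365, 372 and 375.

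HERPUD1, a membrane protein that recruits HRD1 complexes and a classical stress-induced gene, was the 1 member called higher in both TACI lines. It stood at 74.1, 73.9 and 72.7 CPM in the controls, 104, 101 and 98.6 CPM in TACI long and 88.4, 87.7 and 85.3 CPM in TACI short. On the CPM scale the 3 groups did not overlap. The log2 fold change was 0.46 ± 0.04 in TACI long (edgeR adjusted p = 4.02e-09), and in TACI short it was 0.12 ± 0.04 (edgeR adjusted p = 0.0242), a call lost in 8 of the 19 alternatives, DESeq2 among them (adjusted p = 0.0701).

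The derlins, multi-spanning proteins of the retrotranslocation channel, split by member. DERL2 rose from 14.2, 14.3 and 15.2 CPM to 19.3, 21.0 and 21.5 CPM in TACI long (0.50 ± 0.06) and fell to 10.9, 10.3 and 10.7 CPM in TACI short (-0.58 ± 0.07), without overlap. DERL1 rose in TACI long (0.37 ± 0.04). Its small fall in TACI short, -0.15 ± 0.04, was lost with totals alone (-0.02). DERL3, known for its expression in secretory cells, did not pass the test in TACI long (-0.06 ± 0.05) and fell in TACI short (-0.41 ± 0.05), from 35.8, 33.5 and 35.0 CPM to 30.4, 27.8 and 27.9 CPM.

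The EDEM genes encode mannosidase-like proteins that mark glycoproteins for disposal, and 2 of the 3 fell in TACI long. EDEM1 (ENSG00000134109, chromosome 3, 5187646 to 5219957, plus strand) stood at 110, 116 and 115 CPM in the controls and 77.9, 82.9 and 79.3 CPM in TACI long, with a log2 fold change of -0.50 ± 0.04 (edgeR adjusted p = 5.35e-10). In TACI short it was at 115, 116 and 113 CPM, within the control range, and its log2 fold change of -0.12 ± 0.04 became 0.01 with totals alone. EDEM3 fell in TACI long (-0.24 ± 0.06), although 1 library of 43.0 CPM overlapped the lowest control at 41.8 CPM. EDEM2 had 14.7, 14.7 and 14.4 CPM in the controls, 14.6, 11.6 and 12.9 CPM in TACI long and 18.5, 17.9 and 19.7 CPM in TACI short. Its rise in TACI short, 0.23 ± 0.07, was lost with DESeq2 (adjusted p = 0.0593) and without control replicate 3 (edgeR adjusted p = 0.0602). All 3 EDEM genes were higher in TACI short than in TACI long, by 0.39 ± 0.04, 0.39 ± 0.08 and 0.27 ± 0.06. The difference for EDEM3 was 0.20 and not called when replicate 1 was the single TACI short library (edgeR adjusted p = 0.13).

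**Figure D3:**
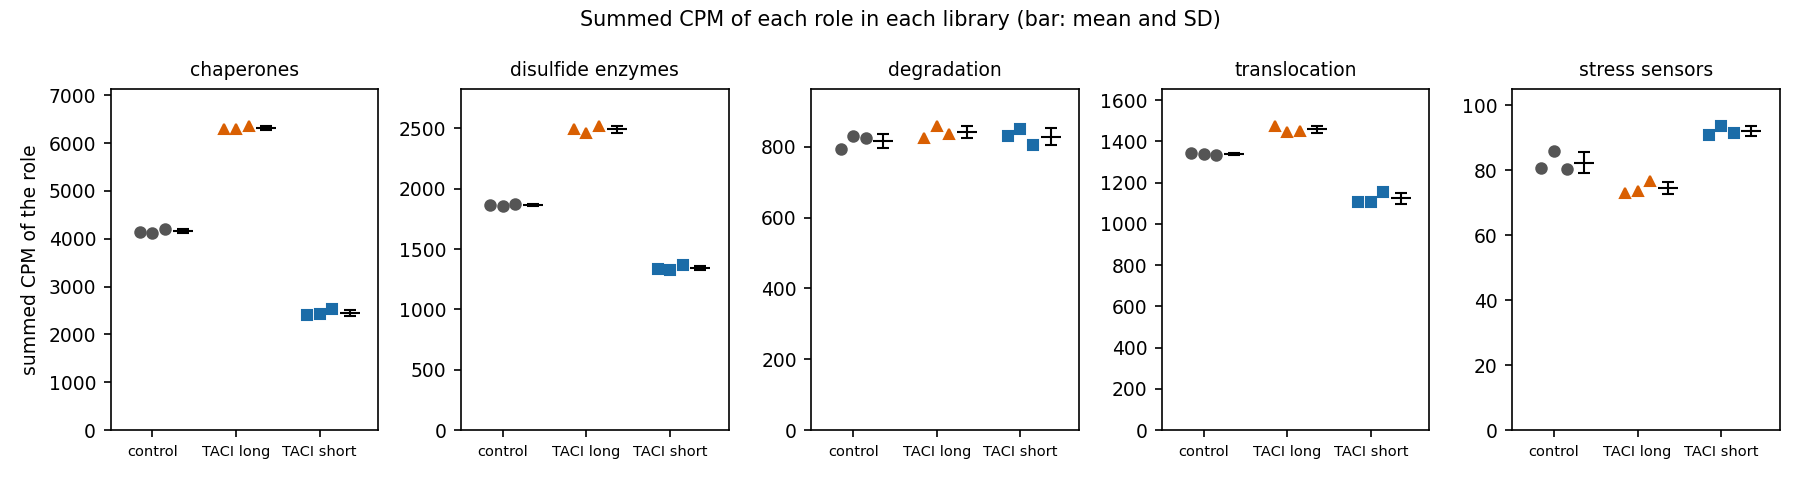
Summed CPM of the members of each role in each library (points), with the mean and SD of the 3 libraries of a group as a bar. The sums use library totals without TMM factors. On that scale chaperones, disulfide enzymes and translocation genes are separated in the order TACI long, control, TACI short, and degradation genes overlap. The sensor sums run in the opposite order, but only ERN1 was called higher in TACI short, and ATF6 and EIF2AK3 were not called there.

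Translocation genes moved in smaller steps. Their summed level was 1334 to 1346 CPM in the controls, 1448 to 1477 CPM in TACI long and 1108 to 1155 CPM in TACI short. In TACI long 6 of the 10 rose and 2 fell, all between -0.20 and 0.25 on the log2 scale, with a median of 0.20. Over all genes tested, 25.2% were higher and 25.9% lower there. In TACI short 9 fell, with a median of -0.33, beside 31.1% lower and 31.5% higher over all genes tested. The tenth, SSR2, did not pass the test (-0.08 ± 0.05, and 0.05 with totals alone).

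SEC61A1 encodes the pore of the translocation channel (ENSG00000058262, chromosome 3, 128051641 to 128071683, plus strand). It had 280, 273 and 278 CPM in the controls, 318, 318 and 321 CPM in TACI long and 185, 193 and 193 CPM in TACI short. The groups were apart, and the fall (-0.67 ± 0.04, edgeR adjusted p = 8.17e-13) was larger than the rise on the log2 scale (0.20 ± 0.04, edgeR adjusted p = 0.000109). The small subunits SEC61B and SEC61G followed with 0.22 ± 0.05 and 0.19 ± 0.05 in TACI long and -0.51 ± 0.05 and -0.28 ± 0.05 in TACI short. SEC61B stood at 88.2, 80.9 and 86.2 CPM in the controls, 102, 97.0 and 97.8 CPM in TACI long and 67.7, 64.7 and 63.8 CPM in TACI short.

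The translocon-associated protein complex, which helps some signal sequences open the channel, was uneven over its 4 subunits. SSR4 rose and fell (0.23 ± 0.05 and -0.33 ± 0.05), from 81.6, 79.2 and 80.2 CPM to 96.3, 92.0 and 93.4 CPM in TACI long and 69.4, 66.8 and 72.7 CPM in TACI short. SSR1 fell in both lines, from 160, 161 and 156 CPM to 137, 141 and 136 CPM in TACI long (-0.20 ± 0.04) and to 132, 131 and 136 CPM in TACI short (-0.39 ± 0.04). SSR3 did not pass the test in TACI long (0.05 ± 0.04) and fell in TACI short (-0.32 ± 0.04). SSR2 passed in neither, at 91.7 to 93.7 CPM in the controls, 95.3 to 103 CPM in TACI long and 88.8 to 103 CPM in TACI short.

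The signal peptidase complex was represented by SPCS1, SPCS2 and SPCS3. SPCS2 rose from 105, 104 and 106 CPM to 129, 122 and 122 CPM in TACI long (0.25 ± 0.04) and fell to 76.3, 74.8 and 79.7 CPM in TACI short (-0.57 ± 0.05). SPCS3 had 220, 234 and 222 CPM in the controls, 267, 266 and 266 CPM in TACI long and 203, 198 and 205 CPM in TACI short (0.24 ± 0.04 and -0.28 ± 0.04). SPCS1 differed from them: it was called slightly lower in both lines (-0.11 ± 0.05 and -0.12 ± 0.05), with each call lost in several alternatives and a value of 0.01 in TACI short with totals alone. Exons of GLT8D1 and NEK4 overlap 59.1% of the exon bases of SPCS1, and the libraries keep no strand, so its counts are uncertain.

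The 3 stress sensors had little RNA, 80.3 to 86.0 CPM together in the controls, 73.1 to 76.7 CPM in TACI long and 90.8 to 93.7 CPM in TACI short. ERN1 encodes IRE1, the kinase and endonuclease that splices XBP1 (ENSG00000178607, chromosome 17, 64039142 to 64130819, minus strand). It stood at 7.13, 8.10 and 8.12 CPM in the controls, 6.92, 7.90 and 7.95 CPM in TACI long and 15.3, 16.5 and 15.6 CPM in TACI short. TACI long overlapped the controls, whereas all TACI short libraries lay far above both. The rise in TACI short was 1.86-fold (0.89 ± 0.08, edgeR adjusted p = 6.37e-10), the highest of the 40 genes, and the fold in TACI long did not pass the test (-0.03 ± 0.08, edgeR adjusted p = 0.762). With replicate 1 as the single TACI short library, and the spread taken from the other groups, the value was again 0.89 and called. Its lowest count was 293, in TACI long replicate 1, the lowest of any member in any library.

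ATF6, the membrane-bound transcription factor that is cut in the Golgi, had 52.7, 54.3 and 50.5 CPM in the controls, 46.6, 48.2 and 49.7 CPM in TACI long and 52.3, 54.9 and 53.7 CPM in TACI short. It was called lower in TACI long (-0.12 ± 0.05, edgeR adjusted p = 0.0281), a call lost in 6 alternatives, and did not pass in TACI short (-0.10, and 0.03 with totals alone). EIF2AK3 encodes PERK, the kinase of the translation factor eIF2α. It fell in TACI long from 20.7, 23.6 and 21.7 CPM to 19.6, 17.6 and 19.0 CPM (-0.23 ± 0.06, edgeR adjusted p = 0.00364), a call lost without TACI long replicate 2 (edgeR adjusted p = 0.0536). In TACI short, at 23.1, 22.3 and 22.1 CPM, it overlapped the controls (-0.09 ± 0.06, and 0.04 with totals alone).

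Levels between genes were compared per exon length, as TPM, in which counts over exon length are scaled to the same total in each library. In the controls CALR was highest, at 1577 TPM (1535 to 1639), followed by HSPA5 at 953 TPM (943 to 964), PDIA3 at 455, CANX at 438, P4HB at 416 and HSP90B1 at 360 TPM. Each of these was above the next in every control library. Further down, some neighbours were apart, such as PDIA6 and PDIA4 (311 and 289 TPM), and some were not. Among those that overlapped were SDF2L1 and SEC61B (261 and 250 TPM), SSR3 and SPCS3 (116 and 115) and HYOU1 and SSR4 (61.2 for each). The lowest were DERL2 at 7.97 TPM and ERN1 at 2.51 TPM. CALR and HSPA5 kept the first and the second place in TACI long (2366 and 1544 TPM) and in TACI short (874 and 462 TPM), and ERN1 was last in all groups, at 2.37 TPM in TACI long and 5.23 TPM in TACI short. SYVN1, in place 11 in the controls (236 TPM), was in place 7 by mean in TACI short at 242 TPM (225 to 255). Its libraries there surrounded those of PDIA6 (232 to 234 TPM) and lay above those of SEC61B (192 to 205 TPM). The 40 genes together made up 0.714 to 0.724% of all TPM in the controls, but 0.956 to 0.984% in TACI long and 0.49 to 0.502% in TACI short.

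**Figure D4:**
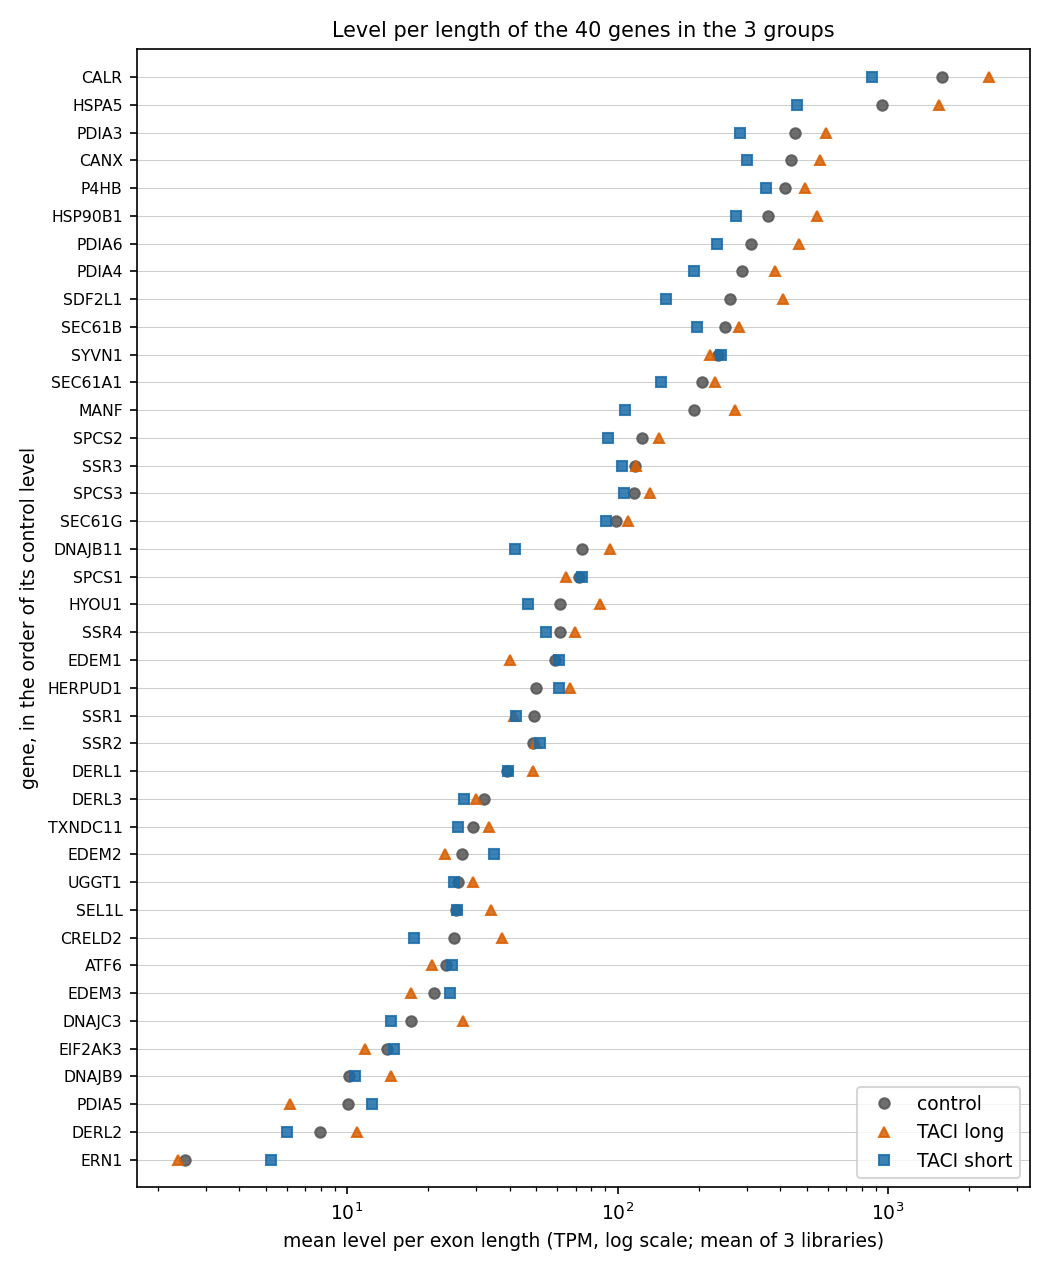
Mean level per exon length (TPM, log axis, mean of 3 libraries) of the 40 genes in the 3 groups, in the order of their control level. CALR and HSPA5 are the top 2 in each group and ERN1 the lowest, and the gap between TACI long (triangles) and TACI short (squares) is wide at the top and narrow for most genes in the middle.

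Further genes of the pathway were taken from lists of 125 genes, of which 122 were tested. In TACI long 55 were higher and 28 lower (median 0.06), beside 25.2% and 25.9% of all genes tested. In TACI short 16 were higher and 80 lower (median -0.21), beside 31.5% and 31.1% of all genes tested. The division became 34 and 63 with totals alone and 29 and 68 with upper-quartile factors. Over all genes the calls were 6862 higher and 3779 lower with totals alone, and 6320 and 4330 with upper-quartile factors. Between the isoforms 82 were lower and 20 higher in TACI short, beside 33.6% and 35.2% of all genes tested, and 69 and 29 with totals alone. The counts of each list below are to be read beside these same shares over all genes.

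Of 21 genes of vesicle traffic between the ER and the Golgi, which cover export coats, the COPI coat and KDEL receptors of the return path, 14 rose and 1 fell in TACI long, and 15 fell and 1 rose in TACI short. KDELR2, a receptor that returns ER residents from the Golgi, rose from 101, 96.3 and 101 CPM to 151, 146 and 146 CPM in TACI long (0.57 ± 0.04) and fell to 87.2, 88.3 and 88.3 CPM in TACI short (-0.30 ± 0.04). SEC23A, of the inner coat of export vesicles, changed by 0.43 ± 0.05 and -0.72 ± 0.05. Of the 18 genes of oligosaccharyltransferase and glucose trimming, 10 rose and 4 fell in TACI long, and 14 fell in TACI short. STT3B, a catalytic subunit of that enzyme, rose from 282, 293 and 288 CPM to 407, 405 and 412 CPM in TACI long (0.50 ± 0.04), and its small fall in TACI short (-0.14 ± 0.04) was lost with totals alone.

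Among the 22 other translocation genes, 10 rose and 4 fell in TACI long, and 2 rose and 18 fell in TACI short. SRP9, a subunit of the signal recognition particle, fell in both lines, from 226, 232 and 222 CPM to 178, 176 and 168 CPM in TACI long (-0.38 ± 0.04) and 99.7, 105 and 105 CPM in TACI short (-1.26 ± 0.04). TRAM2 rose in both (0.87 ± 0.05 and 0.65 ± 0.05). Of 24 other degradation genes, 10 rose and 5 fell in TACI long, and 1 rose and 18 fell in TACI short. VCP, the ATPase that pulls substrates out of the membrane, rose in TACI long (0.21 ± 0.04) and fell in TACI short (-0.48 ± 0.04).

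Of the 20 other folding factors, 6 were higher and 6 lower in TACI long, an even division near that of all genes tested (25.2% and 25.9%). In TACI short 6 were higher and 12 lower, beside 31.5% and 31.1% of all genes tested. ERO1A and ERO1B, the oxidases that recharge disulfide isomerases, differed from each other: ERO1A fell in TACI long (-0.41 ± 0.05) and ERO1B rose there (0.62 ± 0.08), while both rose in TACI short (0.22 ± 0.05 and 0.75 ± 0.08). FKBP11, a prolyl isomerase of secretory cells, fell in TACI long from 40.9, 39.5 and 39.0 CPM to 24.8, 24.4 and 25.2 CPM (-0.68 ± 0.05). PPIB, cyclophilin B, rose and fell with steps of 0.39 ± 0.05 and -0.60 ± 0.05.

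Of 17 further tested genes of stress signalling, which include ATF6B, other kinases of eIF2α and the proteases that cut ATF6, 5 rose and 8 fell in TACI long, and 6 rose and 3 fell in TACI short. ATF4, the transcription factor whose translation PERK raises, stood at 531, 520 and 517 CPM in the controls, 212, 225 and 208 CPM in TACI long and 566, 539 and 564 CPM in TACI short. The log2 fold change was -1.28 ± 0.05 in TACI long (edgeR adjusted p = 1.14e-16). In TACI short it was -0.04 ± 0.04 and did not pass, whereas with totals alone it was 0.09 and passed (edgeR adjusted p = 0.0227). DDIT3, which encodes the stress factor CHOP, had 17.7, 17.8 and 18.0 CPM in the controls, 6.29, 6.91 and 6.10 CPM in TACI long and 37.6, 36.7 and 33.9 CPM in TACI short. It thus fell in TACI long (-1.47 ± 0.07) and rose in TACI short (0.89 ± 0.06), with no overlap of the groups.

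PPP1R15A encodes GADD34, which restores translation after PERK has acted. It fell in TACI long from 49.5, 52.0 and 50.6 CPM to 16.0, 16.0 and 15.3 CPM (-1.68 ± 0.05) and stood at 52.7, 61.2 and 58.4 CPM in TACI short (0.05 ± 0.05, edgeR adjusted p = 0.357), a value of 0.18 that passed with totals alone. BBC3, which encodes the cell death protein PUMA, fell in TACI long (-1.13 ± 0.10) and rose in TACI short (1.52 ± 0.09). XBP1, the substrate of IRE1, rose and fell in small steps, from 111, 106 and 111 CPM to 123, 118 and 122 CPM in TACI long (0.15 ± 0.04, edgeR adjusted p = 0.0073) and 89.7, 88.0 and 91.9 CPM in TACI short (-0.41 ± 0.05). The rise in TACI long lost its call without control replicate 2 and without TACI long replicate 1 or 3. Gene counts do not show whether XBP1 was spliced.

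**Figure D5:**
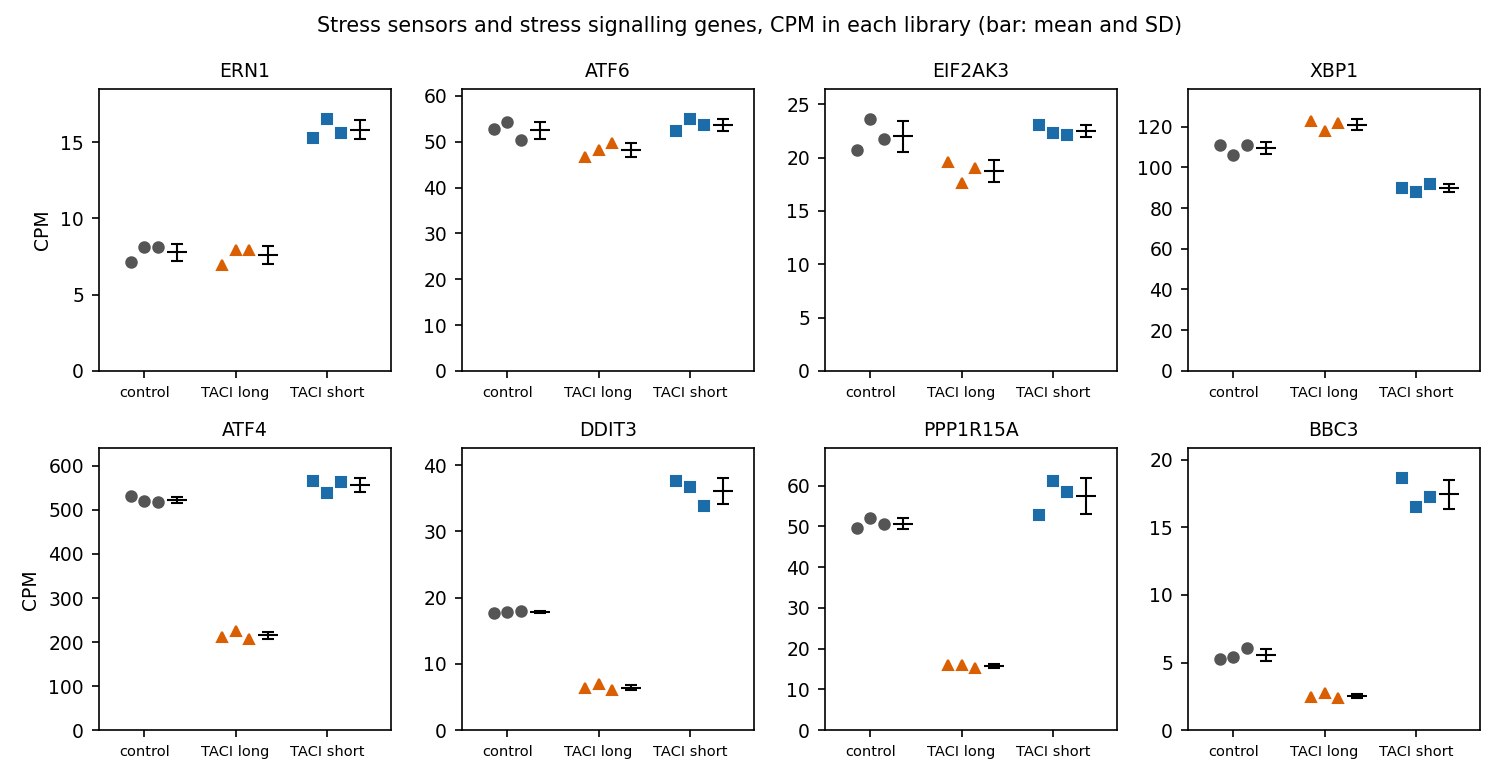
CPM of the 3 stress sensors and 5 stress signalling genes in each library (points), with the mean and SD of the 3 libraries of a group as a bar. ATF4, DDIT3, PPP1R15A and BBC3 are lowest in the TACI long libraries, and ERN1, DDIT3 and BBC3 are highest in the TACI short libraries.

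Markers of other cell types were set beside these groups. The 8 plasma-cell markers, which include the folding factor MZB1, summed to 975 to 1024 CPM in the controls, 811 to 847 CPM in TACI long and 638 to 691 CPM in TACI short, with 6 of the 8 at 1 CPM or more in each group. Of the 8, SDC1 did not exceed 0.2 CPM and IRF4 did not exceed 0.298 CPM in any library. The sum, lower in both TACI lines, was made up mainly of JCHAIN, MZB1 and CD38. SLAMF7 added 106 to 107 CPM in the controls and 48.9 to 56.3 CPM in TACI short, but only 7.65 to 9.19 CPM in TACI long. In the same list PRDM1 and TNFRSF17, with little RNA, rose in TACI long (2.44-fold and 2.64-fold). In TACI short PRDM1 rose 2.18-fold as well, whereas TNFRSF17 fell 1.71-fold. The 10 epithelial and fibroblast markers summed to 101 to 103, 114 to 120 and 83.3 to 91.7 CPM, in the same order as the chaperones, and EPCAM made up most of it, at 95 to 96.9 CPM in the controls. KRT8, KRT18, KRT19 and CDH1 were at or under 0.0799 CPM in every library. COL1A1 stood at 1.5 to 2.61 CPM in the controls, 1.53 to 2.55 CPM in TACI long and 3.24, 11.0 and 10.2 CPM in TACI short. COL1A2 was at 3.99 and 4.11 CPM in TACI short replicates 2 and 3, against 0.51 to 1.44 CPM elsewhere. DCN went from 2.76 to 3.02 CPM in the controls to 0.354 to 0.548 CPM in TACI long and 2.01 to 2.44 CPM in TACI short. The part of these markers in the result was not tested. Beside the high myeloid sums of TACI short replicates 2 and 3, members were not alike. HSPA5 was at 493 and 521 CPM there and at 495 CPM in replicate 1. HYOU1 was at 104 CPM in each of them and at 91.6 CPM in replicate 1, and SDF2L1 at 44.6 and 45.4 CPM against 48.6 CPM.

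Libraries of a group were close for these genes. The median coefficient of variation over the 40 genes was 2.67% in the controls, then 2.48% in TACI long and 3.19% in TACI short. In TACI short, replicate 1 lay above replicates 2 and 3 for 6 genes, below both for 17 and between them for 17.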

How the data were processed

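Per the labels, polyadenylated RNA of sorted cells was made into Nextera XT libraries, which keep no strand. Per the submitters' processing notes, FastQC, STAR 2.4.0h, HTSeq and build hg38 were used, whereas the columns of the files have the featureCounts layout. Annotation release and strand setting are not given in the sources used here. The authors deposited raw gene counts without normalization, with totals of 40322136 to 50079203 per library, and no column was left out (0). Symbols came from the gene name table for 56410 of 57500 genes, and all 40 members have the same ends in GENCODE 29.

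Genes were kept with filterByExpr (minimum count 10, minimum total 15), which left 16672 and all 40 members. The main test was edgeR's quasi-likelihood F test, robust, with TMM factors, on all 9 libraries together (edgeR 4.0.16, R 4.3.3, residual df 6, common BCV 0.0792). Calls are Benjamini-Hochberg adjusted p under 0.05 over all genes. Standard errors are approximate, the log2 fold change over the square root of F. CPM is the count over the column total, and TPM uses the exon length of the files. No replicate pair agreed within sampling noise (chi-square per degree of freedom 2.31 to 16.2). The fit was tested on simulated data. The deviations of same-numbered libraries from their group means correlated at 0.434, 0.213 and 0.177 between control and TACI short. Libraries of unlike number reached similar values there: 0.232 for control replicate 3 with TACI short replicate 2, and 0.194 for control replicate 2 with TACI short replicate 3. The other unlike pairs of these groups were negative (-0.389 to -0.247). These values therefore cannot decide whether the numbers pair the libraries, and the main fit held no block. At least 1 same-numbered pair was negative in each other comparison (-0.272 to 0.113), so the numbers were not taken to pair the libraries there. The labels give no source for a pairing. Alternatives were DESeq2 1.42.0, limma-voom (limma 3.58.1), other scalings, filters, thresholds and samples, the replicate number as a block, and each library left out. Leaving out TACI short replicates 2 and 3 was chosen after seeing the data.

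Members and lists were chosen with earlier results of these data known. All members may be named; of each pathway list, the 3 called genes with the lowest adjusted p in each comparison, plus XBP1, ATF4 and DDIT3, and markers of at least 1 CPM. A result that this rule would name is not reported here. Markers named at or near 0 fall outside this rule and were named after their values were seen. A planned description of C-terminal residues was not run, since protein sequences were not used here. Promoters are those of RefSeq (GRCh38.p14); figures were drawn with matplotlib 3.10.9.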

Additional observations from a re-analysis of the deposited data

How the results depend on the processing

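With 19 settings other than thresholds, 31 of 34 calls in TACI long against control, 26 of 34 in TACI short against control and 33 of 36 between the isoforms held in the same direction in all of them. A minimum size of 0.5 on the log2 scale left 11 of 27 higher and 2 of 7 lower members in TACI long, 1 of 3 higher and 16 of 31 lower in TACI short, and 2 of 5 higher in TACI short against TACI long. DESeq2 left 1 of 3 higher in TACI short, and totals alone gave 8 higher in place of 5 between the isoforms. Totals alone also turned the sign of small TACI short values with a call in either scaling: SYVN1 (0.0), EDEM1 (0.01), SPCS1 (0.01) and ATF4 (0.09) against control, and SPCS1 (0.12) and AUP1 (0.03) against TACI long. Of those with no call in either, DNAJB9 (0.03), SSR2 (0.05), ATF6 (0.03), EIF2AK3 (0.04) and FKBP11 (0.07) against control and SYVN1 (0.06) against TACI long also turned. This follows from the median of all genes moving by the scaling.

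Leaving out each library gave 27 higher each time and 4 to 7 lower members in TACI long, with 4 without TACI long replicate 2 (ATF6, EIF2AK3 and SPCS1 lost). It gave 1 to 3 higher and 29 to 31 lower in TACI short, with 1 higher without control replicate 3 (EDEM2 and HERPUD1 lost), and 5 to 6 higher and 31 to 32 lower between the isoforms. With the replicate number as a block the counts were 27 and 7, 3 and 31, and 5 and 31, and the same members were called. The lowest count of a member in a library was 293 (ERN1). For the members with the lowest counts, such as ERN1, DNAJB9 and PDIA5, counting error is not small beside the spread between libraries. Many members overlap exons of other genes, which unstranded counts cannot separate. The largest shares of exon bases were in SPCS1 (59.1%), PDIA6 (25.2%), DNAJB11 (23.2%), PDIA3 (18.9%), EIF2AK3 (15.1%) and PDIA5 (12.2%).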

Other observations

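Genes that mark plasma cells, in which the ER expands, did not move together in the 2 lines. PRDM1, the transcription factor BLIMP1, stood at 4.76, 4.91 and 4.14 CPM in the controls, 11.3, 11.3 and 11.0 CPM in TACI long and 10.7, 11.3 and 11.0 CPM in TACI short. It rose in both (log2 fold changes 1.28 ± 0.08 and 1.13 ± 0.08, edgeR adjusted p = 5.88e-12 and 3.66e-11). TNFRSF17, which encodes the receptor BCMA, rose in TACI long (1.40 ± 0.10) and fell in TACI short (-0.78 ± 0.11), from 3.87, 3.79 and 4.63 CPM to 10.4, 11.6 and 10.4 CPM and to 2.34, 2.75 and 2.76 CPM.

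JCHAIN, the joining chain of polymeric immunoglobulin, fell in both lines (-0.27 ± 0.07 and -0.81 ± 0.07), from 507, 484 and 467 CPM to 421, 395 and 392 CPM in TACI long and 305, 277 and 326 CPM in TACI short. SLAMF7 fell from 107, 106 and 106 CPM to 8.34, 9.19 and 7.65 CPM in TACI long and to 48.9, 52.3 and 56.3 CPM in TACI short. MZB1, an ER folding factor of B cells and plasma cells, did not pass the test in TACI long (0.06 ± 0.05) and fell in TACI short (-0.59 ± 0.05).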
